A study of Mus musculus with 6 samples.

Results

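Transcripts of the fibroblast growth factor (FGF) family were measured on Affymetrix arrays in lungs of fetal mice at stage E18.5, near the end of gestation, with 1 array for each animal. The family was taken as 6 ligand genes (Fgf1, Fgf2, Fgf7, Fgf9, Fgf10 and Fgf18) and 4 receptor genes (Fgfr1, Fgfr2, Fgfr3 and Fgfr4), and every probe set that the platform annotation assigns to 1 of these 10 symbols was included. This gave 23 probe sets, 10 of ligands and 13 of receptors, among 45037 probe sets that were not Affymetrix controls. The 3 lungs labelled Nfibf/f, Dermo1-Cre were homozygous for a floxed allele of Nfib, which encodes nuclear factor I B, a transcription factor, and carried Dermo1-Cre, and the 3 lungs labelled Nfibf/f had the same floxed alleles with no Cre in the label. Dermo1-Cre drives Cre recombinase from the Dermo1 (Twist2) locus, which is active in mesenchyme, so epithelium is not its target. The comparison asks how mesenchymal Nfib bears on the FGF ligands and receptors of the lung just before birth.

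FGF ligands are secreted proteins that bind receptor tyrosine kinases together with heparan sulfate chains on the cell surface. In the mouse lung, mesenchymal Fgf7 and Fgf10 signal to the epithelium through an epithelial splice form of Fgfr2, while Fgf9, made by mesothelium and epithelium, signals to the mesenchyme. This exchange shapes branching before birth and the growth and differentiation of the distal epithelium.

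The brightest Nfib probe set, 1454834_at, had log2 signals of 11.24, 11.16 and 11.49 in Cre-labelled lungs, against 10.24, 10.32 and 10.17 in control-labelled lungs (limma adjusted p = 0.00487). Of 6 tested probe sets of this gene, the target of the deletion, 5 passed as higher in Cre-labelled lungs, each without overlap between the groups. The sixth, 1438244_at, read 9.70, 9.35 and 9.29 in Cre-labelled lungs, against 9.69, 9.53 and 9.44 in control-labelled lungs (log2 difference -0.11, adjusted p = 0.708). The position of its probes relative to the deleted part is unknown here, so Nfib does not check the genotypes, and all directions below rest on the labels. The lung identity of the samples could be checked, with markers picked after their values were seen. The surfactant gene Sftpc read 12.43 to 12.91 in Cre-labelled and 12.23 to 13.52 in control-labelled lungs. The lung mesenchyme gene Tbx4 read 10.18 to 10.36 in Cre-labelled and 10.25 to 10.30 in control-labelled lungs. Of 6 lung epithelial markers, Sftpc among them, 5 had a lower mean in Cre-labelled lungs and 1 a higher one. Sftpb was lower (log2 difference -1.27, limma adjusted p = 0.0148), as was Scgb1a1 (-0.69, adjusted p = 0.0561). The lung epithelial gene Nkx2-1 was dim, with means of 4.65 in Cre-labelled and 5.11 in control-labelled lungs (limma adjusted p = 0.454).

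Of the 23 FGF probe sets, 21 had a mean over the 6 arrays above the level required for testing, a log2 signal of 4.0, and 2 did not. Of these 21, 1 passed an adjusted p of 0.05 in limma, a linear model fitted here across the whole array. It was a probe set of Fgf1, and it was lower in Cre-labelled lungs. Over all 27022 tested probe sets 3.56% passed in either direction and 2.16% passed as lower, so that 1 of 21 (4.76%) was close to the share on the whole array. At an unadjusted p under 0.05, 6 FGF probe sets (28.6%) were found, against 19.5% of all tested probe sets. In 5 FGF probe sets (23.8%) the values of the groups did not overlap, against 26.1% of all, and in all 5 the Cre-labelled lungs were lower, a direction seen without overlap in 12.8% of all tested probe sets. The 5 belonged to Fgf1, Fgf7 and Fgfr4. The median log2 difference, Cre-labelled minus control-labelled, was -0.42 over 9 ligand probe sets and -0.14 over 12 receptor probe sets, against 0.0011 over all tested probe sets. These medians count probe sets, not genes, and 3 of the 9 were of Fgf1 and 2 of Fgf7. By gene, the median was -0.45 for Fgf1, -0.73 for Fgf7, 0.05 for Fgf9, 0.35 for Fgf10 and -0.19 for Fgf18. For the receptors it was -0.50 for Fgfr1, -0.14 for Fgfr2, 0.11 for Fgfr3 and -0.05 for Fgfr4. Whether ligands and receptors differ was not tested.

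**Figure D1:**
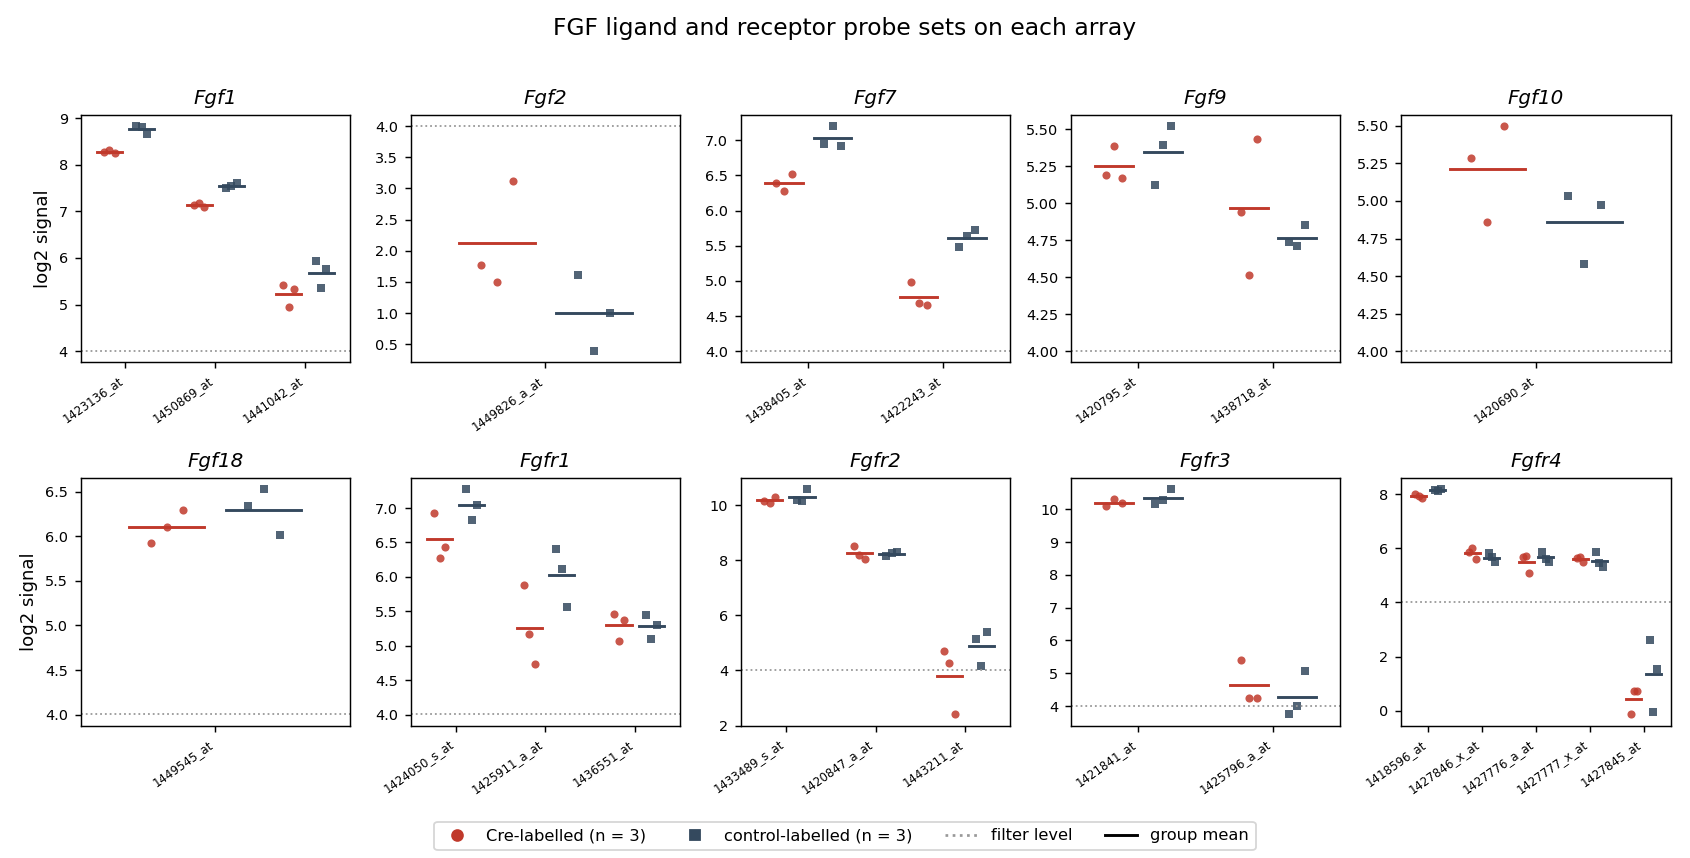
Log2 signal of each FGF probe set on the 3 Cre-labelled arrays (red circles) and the 3 control-labelled arrays (dark squares), with horizontal bars for group means and a dotted line for the level required for testing; the vertical scale differs between genes. The groups stood apart for 2 Fgf1, 2 Fgf7 and 1 Fgfr4 probe sets, while the only Fgf2 probe set lay wholly below the dotted line.

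Fgf1 encodes acidic FGF, a ligand that binds all 4 FGF receptors, and 1 of its 3 probe sets, alone among the tested ligand probe sets, was past the threshold. Its brightest probe set, 1423136_at, read 8.28, 8.32 and 8.25 in Cre-labelled lungs, against 8.84, 8.81 and 8.67 in control-labelled lungs. Every Cre-labelled array was below every control-labelled one, and the spread within the groups was small, with an SD of 0.03 in Cre-labelled and 0.09 in control-labelled lungs (n = 3 each). The log2 difference was -0.49 ± 0.10 SE (95% interval -0.70 to -0.28, limma adjusted p = 0.027), or 1.4-fold lower. The call was lost in each of the 6 fits without 1 array (adjusted p 0.0501 to 0.0974) and with arrays scaled to a common median (adjusted p = 0.134) or with no intensity trend in the variance (adjusted p = 0.0958), while the difference itself stayed between -0.54 and -0.42 in all 16 alternative fits.

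The other Fgf1 probe sets had differences of similar size. 1450869_at read 7.13, 7.17 and 7.10 in Cre-labelled lungs, against 7.5, 7.55 and 7.61 in control-labelled lungs, again without overlap, and differed by -0.42 ± 0.11 SE on the log2 scale (limma adjusted p = 0.0701). The dim probe set 1441042_at read 5.41, 4.96 and 5.33 in Cre-labelled lungs, against 5.93, 5.35 and 5.77 in control-labelled lungs, where the values overlapped (-0.45 ± 0.23 SE, adjusted p = 0.325). The gap between the difference of the called probe set and those of the others was -0.07 against 1450869_at (exact permutation test, two-sided, p = 0.4) and -0.04 against 1441042_at (exact p = 0.7), each with an adjusted p of 0.7 over the 2 pairs; with 3 arrays a group the smallest p that this test allows is 0.1, so it could not pass. All 3 Fgf1 probe sets had a negative difference, and 1 of them passed.

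Fgf7 encodes keratinocyte growth factor, a mesenchymal ligand that acts on epithelial Fgfr2, and the differences of its 2 probe sets fell just short of the threshold. Its brighter probe set, 1438405_at, read 6.39, 6.28 and 6.52 in Cre-labelled lungs, against 6.95, 7.20 and 6.92 in control-labelled lungs. Its dimmer one, 1422243_at, read 4.98, 4.69 and 4.66 in Cre-labelled lungs, against 5.48, 5.63 and 5.72 in control-labelled lungs. In neither did the groups overlap, and the lowest control-labelled array was above the highest Cre-labelled array in both. The log2 differences were -0.63 ± 0.15 SE for the brighter probe set (95% interval -0.96 to -0.30, limma adjusted p = 0.0518) and -0.83 ± 0.21 SE for the dimmer one (95% interval -1.30 to -0.36, adjusted p = 0.0611). In linear terms these were 1.54-fold and 1.78-fold lower values in Cre-labelled lungs. The brighter probe set passed in 3 of 16 alternative fits: with a stricter filter (adjusted p = 0.0419), with array weights (adjusted p = 0.0329) and with 1 probe set for each gene (adjusted p = 0.0248). In the fits without 1 array neither probe set passed. With an offset of 64 added to the signals, which shrinks differences of dim probe sets, the log2 differences were -0.39 and -0.30, against -0.42 for the brightest Fgf1 probe set.

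**Figure D2:**
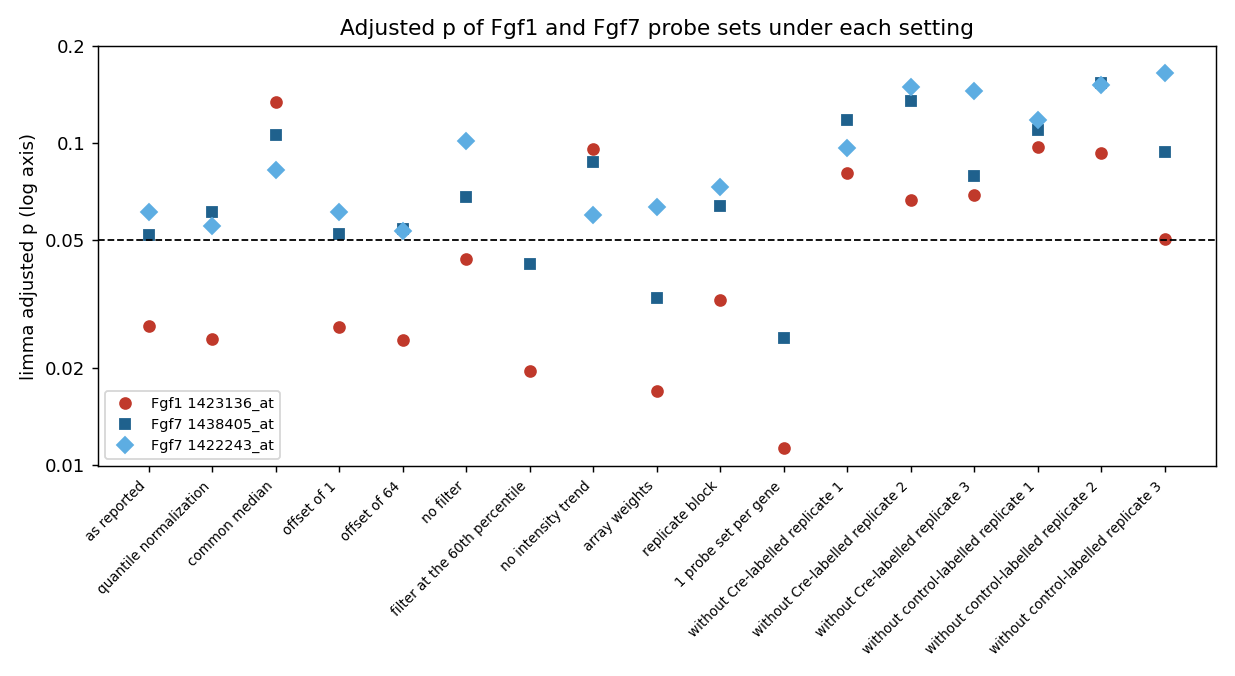
Adjusted p of the brightest Fgf1 probe set (red circles) and both Fgf7 probe sets (blue squares and diamonds) in the fit as reported and in 16 alternative fits, on a log axis, with a dashed line at 0.05; the dimmer Fgf7 probe set is absent from the stricter filter and from the fit with 1 probe set for each gene. Fgf1 lies below the line in 8 alternatives and above it in every fit without 1 array, and the brighter Fgf7 probe set lies below it in 3.

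Fgf10, the mesenchymal ligand needed for lung bud outgrowth, had a difference of the opposite sign. Its only probe set, 1420690_at, read 5.29, 4.86 and 5.50 in Cre-labelled lungs, against 5.03, 4.58 and 4.97 in control-labelled lungs. The groups overlapped, and the log2 difference of 0.35 ± 0.25 SE did not pass (95% interval -0.22 to 0.92, limma adjusted p = 0.491). The difference was 0.21 without Cre-labelled replicate 3 or without control-labelled replicate 2, and 0.53 without Cre-labelled replicate 2. The interval leaves room for a 1.89-fold higher and a 1.16-fold lower level. Whether Fgf7 and Fgf10 differ in their response was not tested.

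Fgf7 and Fgf10 share the receptor Fgfr2, and the sequences upstream of the 3 genes are printed to set the ligands and their receptor side by side in an experiment on a nuclear factor I gene. Each is the 250 bases before the gene's start, 5′ to 3′ on the gene's strand, from RefSeq on build GRCm38.p6, and capitals mark TTGGC or its reverse complement GCCAA, the half-site that nuclear factor I proteins are known to bind. The Fgf7 window is chr2:126034408-126034657 (plus strand), the Fgf10 window chr13:118714449-118714698 (plus strand) and the Fgfr2 window chr7:130266809-130267058 (minus strand).
Fgf7: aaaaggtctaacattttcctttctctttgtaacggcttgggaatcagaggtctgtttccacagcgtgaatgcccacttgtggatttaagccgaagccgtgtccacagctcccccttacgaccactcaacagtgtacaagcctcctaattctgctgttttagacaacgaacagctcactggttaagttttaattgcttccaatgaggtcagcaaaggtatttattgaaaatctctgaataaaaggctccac
Fgf10: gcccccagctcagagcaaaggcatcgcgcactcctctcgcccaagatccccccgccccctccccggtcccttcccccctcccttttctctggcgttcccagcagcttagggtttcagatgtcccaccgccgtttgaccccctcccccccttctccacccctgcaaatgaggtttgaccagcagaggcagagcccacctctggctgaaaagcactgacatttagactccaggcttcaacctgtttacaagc
Fgfr2: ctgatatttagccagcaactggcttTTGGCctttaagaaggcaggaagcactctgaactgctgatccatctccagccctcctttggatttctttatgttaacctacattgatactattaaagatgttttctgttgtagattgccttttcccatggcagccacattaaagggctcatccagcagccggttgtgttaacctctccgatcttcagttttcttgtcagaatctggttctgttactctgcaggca
The Fgfr2 window held 1 match, which begins 225 bases before the start, and the Fgf7 and Fgf10 windows held none. Of 9 windows matched by symbol for 8 of the 10 genes, 3 (33.3%) held the half-site, those of Fgf9, Fgfr2 and Fgfr4, against 41.5% of all 32851 windows of this length, both strands counted. The paired motif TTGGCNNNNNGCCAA was in none of the 9 windows and in 0.0365% of all. These matches describe letters, not binding.

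The other ligands showed no difference that passed. Fgf9, which in the mouse lung comes from mesothelium and epithelium, had 2 probe sets whose differences had opposite signs. 1420795_at read 5.19, 5.39 and 5.17 in Cre-labelled lungs, against 5.13, 5.40 and 5.52 in control-labelled lungs (log2 difference -0.10 ± 0.21 SE, limma adjusted p = 0.847). 1438718_at read 4.94, 4.52 and 5.43 in Cre-labelled lungs, against 4.74, 4.71 and 4.85 in control-labelled lungs (0.20 ± 0.27 SE, adjusted p = 0.751). Without Cre-labelled replicate 3 the difference of 1438718_at was -0.04. Fgf18, a mesenchymal ligand, read 5.92, 6.10 and 6.29 in Cre-labelled lungs, against 6.34, 6.53 and 6.01 in control-labelled lungs, with overlap (-0.19 ± 0.19 SE, adjusted p = 0.644). Its difference was -0.07 without control-labelled replicate 2, -0.10 without Cre-labelled replicate 1 and -0.33 without control-labelled replicate 3. Fgf2, basic FGF, read 1.78, 1.5 and 3.12 in Cre-labelled lungs, against 1.61, 0.39 and 1.0 in control-labelled lungs. These Fgf2 signals lie below the level required for testing, and no fold change is given.

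None of the 12 tested receptor probe sets passed in limma, while 2 of them, both of Fgfr1, had an unadjusted p under 0.05. Fgfr1, a receptor of mesenchymal cells, had 3 probe sets, and whether their differences differ from each other was not tested. 1424050_s_at read 6.92, 6.28 and 6.43 in Cre-labelled lungs, against 7.27, 6.82 and 7.04 in control-labelled lungs (log2 difference -0.50 ± 0.20 SE, limma adjusted p = 0.199). 1425911_a_at read 5.89, 5.17 and 4.74 in Cre-labelled lungs, against 6.40, 6.12 and 5.56 in control-labelled lungs (-0.77 ± 0.32 SE, adjusted p = 0.228). In both, Cre-labelled replicate 1 lay above the lowest control-labelled array, so the groups overlapped. 1436551_at read 5.47, 5.07 and 5.37 in Cre-labelled lungs, against 5.45, 5.10 and 5.30 in control-labelled lungs, with almost the same mean in both groups (0.02 ± 0.21 SE, adjusted p = 0.978). The suffix s marks probes shared by transcripts of more than 1 gene and the suffix a marks probes shared by several transcripts of 1 gene, and the splice forms that these probe sets read are not recorded in the annotation used.

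Fgfr2, the receptor of Fgf7 and Fgf10 in the epithelium, was measured with narrow intervals by its 2 brighter probe sets. 1433489_s_at read 10.15, 10.09 and 10.29 in Cre-labelled lungs, against 10.20, 10.16 and 10.57 in control-labelled lungs (log2 difference -0.14 ± 0.13 SE, limma adjusted p = 0.613). 1420847_a_at read 8.50, 8.20 and 8.04 in Cre-labelled lungs, against 8.14, 8.25 and 8.31 in control-labelled lungs (0.01 ± 0.13 SE, adjusted p = 0.969). Their 95% intervals, -0.43 to 0.15 and -0.28 to 0.31, leave out a 1.5-fold change in either direction. The third, 1443211_at, read 4.69, 4.28 and 2.40 in Cre-labelled lungs, against 5.15, 4.15 and 5.39 in control-labelled lungs, and the low value of Cre-labelled replicate 3 gave it the widest interval of all tested FGF probe sets (-2.40 to 0.19, adjusted p = 0.33).

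Fgfr3 and Fgfr4 are known together for a role in alveolus formation after birth in mice. The bright Fgfr3 probe set, 1421841_at, read 10.08, 10.30 and 10.20 in Cre-labelled lungs, against 10.15, 10.27 and 10.61 in control-labelled lungs (log2 difference -0.15 ± 0.13 SE, 95% interval -0.45 to 0.15, limma adjusted p = 0.592). Control-labelled replicate 3 was the highest array for both this probe set and the brightest one of Fgfr2; without it the differences were -0.016 for Fgfr3 and -0.0075 for Fgfr2. The other Fgfr3 probe set, 1425796_a_at, read 5.40, 4.24 and 4.26 in Cre-labelled lungs, against 3.74, 3.99 and 5.06 in control-labelled lungs, a wide spread on both sides (0.37 ± 0.43 SE, adjusted p = 0.7).

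Fgfr4 had 5 probe sets, of which 4 were tested. The brightest, 1418596_at, read 8.02, 7.93 and 7.87 in Cre-labelled lungs, against 8.16, 8.13 and 8.18 in control-labelled lungs, with no overlap. The log2 difference was small, -0.21 ± 0.10 SE, and did not pass (95% interval -0.44 to 0.01, limma adjusted p = 0.272). It kept its sign in all 16 alternative fits and passed in none. The other 3 tested probe sets had log2 differences of 0.17 ± 0.19 SE (1427846_x_at), -0.16 ± 0.23 SE (1427776_a_at) and 0.07 ± 0.21 SE (1427777_x_at), with adjusted p of 0.691 to 0.89 and overlapping groups. The suffix x marks probes similar to sequences of other genes. The fifth, 1427845_at, lay below the level for testing, with signals of -0.14 to 0.75 in Cre-labelled and -0.03 to 2.60 in control-labelled lungs.

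**Figure D3:**
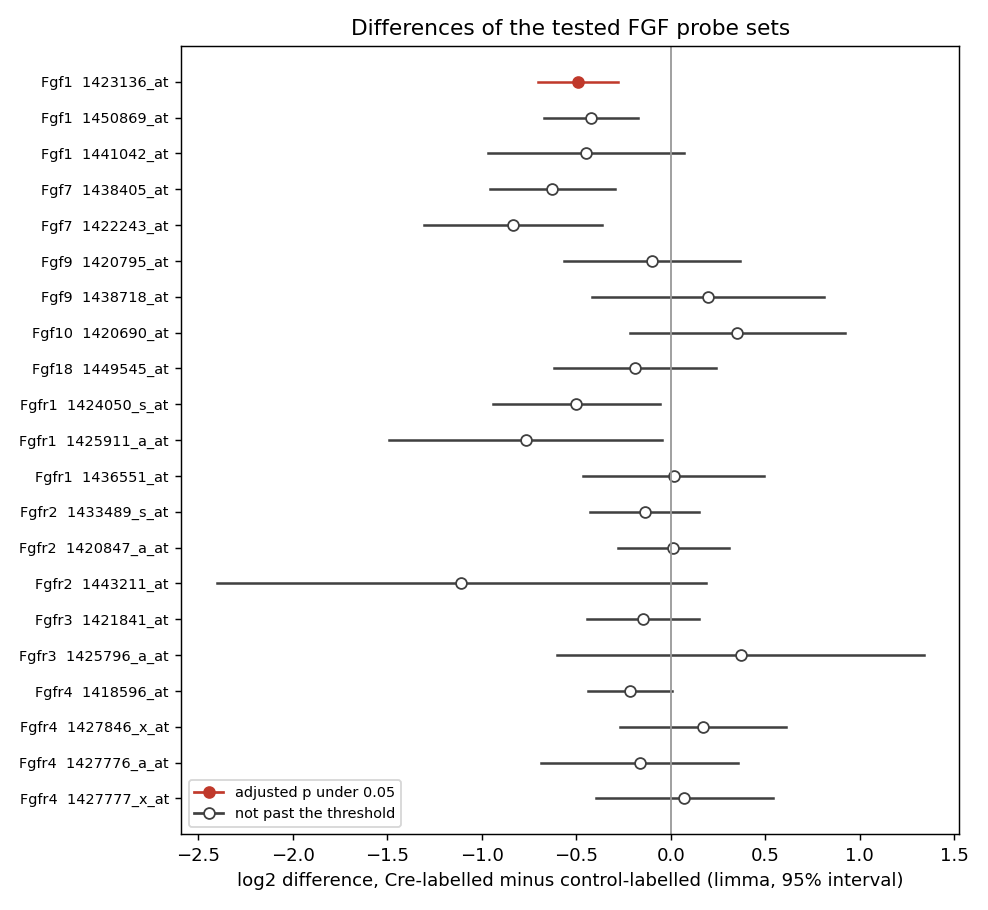
Log2 difference, Cre-labelled minus control-labelled, of the 21 tested FGF probe sets, with 95% intervals from limma; the filled red point passed an adjusted p of 0.05. The intervals of 6 probe sets, 2 each of Fgf1, Fgf7 and Fgfr1, leave out 0, and all 6 lie below it.

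Across the family, the intervals of 7 of 21 tested probe sets lay wholly within a 1.5-fold change in either direction, and those of 17 within a 2-fold change. The 7 belonged to Fgf9, Fgfr1, Fgfr2, Fgfr3 and Fgfr4. Standard deviations among arrays of a group had a median of 0.21 in Cre-labelled and 0.20 in control-labelled lungs (n = 3 each), and were widest for dim probe sets, up to 1.22 in Cre-labelled and 0.70 in control-labelled lungs. Signals of different probe sets are not compared as levels, since each probe set has its own affinity.

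Lists of 6 kinds held 90 other genes of the pathway, of which 81 had a probe set of their own and 62 were tested, each by its brightest tested probe set; the other 9 were not analysed here. Of the 62, 5 rose, 1 fell and 56 did not pass, against 4.96% of 12826 genes that passed in either direction on the array (1.92% higher and 3.04% lower).

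Among 21 tested genes of heparan sulfate proteoglycans and their enzymes 4 rose, none fell and 17 did not pass; the median of their log2 differences was 0.05, against -0.01 for all genes. Hs6st2, which adds sulfate at the 6-O position of heparan sulfate, read 8.21, 7.97 and 8.07 in Cre-labelled lungs, against 7.25, 7.24 and 7.21 in control-labelled lungs. It was 1.80-fold higher (log2 difference 0.85 ± 0.11 SE, limma adjusted p = 0.00755) and passed in all 16 alternative fits. Gpc6, a glypican proteoglycan, read 8.41, 8.14 and 8.51 in Cre-labelled lungs, against 7.51, 7.30 and 7.02 in control-labelled lungs, a 2.11-fold difference (1.07 ± 0.15 SE, adjusted p = 0.00948). Ext1, a subunit of the heparan sulfate polymerase, read 9.31, 9.34 and 9.41 in Cre-labelled lungs, against 8.85, 8.91 and 8.73 in control-labelled lungs (0.52 ± 0.09 SE, adjusted p = 0.0218). Sdc2, a syndecan, read 9.54, 9.70 and 9.51 in Cre-labelled lungs, against 9.05, 9.11 and 9.09 in control-labelled lungs (0.50 ± 0.09 SE, adjusted p = 0.0245). The groups did not overlap in 11 of the 21 genes of this list, these 4 among them, against 31.8% of all tested genes. Of the 11, Agrn (-0.39, limma adjusted p = 0.101), Hs2st1 (-0.26, adjusted p = 0.163) and Sdc4 (-0.23, adjusted p = 0.282) were lower in Cre-labelled lungs, and the rest were higher. In the fits without 1 array Hs6st2 and Gpc6 passed in all 6, Sdc2 in 1 (adjusted p 0.0472 to 0.0799) and Ext1 in none (adjusted p 0.06 to 0.0676). Sdc2 and Ext1 were also lost with arrays scaled to a common median (adjusted p = 0.0851 and 0.0724), and with no intensity trend Gpc6, Sdc2 and Ext1 were lost (adjusted p = 0.0555, 0.0953 and 0.0882). The other tested probe sets of Gpc6 (4), Sdc2 (2) and Ext1 (1) all had positive differences, and none of them passed.

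Of 6 tested co-receptor, binding protein and receptor-like genes 1 rose, none fell and 5 did not pass (median log2 difference -0.03). The gene that rose was Flrt2, a leucine-rich repeat membrane protein gene of a family that binds FGF receptors. It read 7.69, 7.44 and 7.65 in Cre-labelled lungs, against 6.96, 6.81 and 6.36 in control-labelled lungs, a 1.84-fold difference (0.88 ± 0.17 SE, limma adjusted p = 0.027). It passed in 1 of the 6 fits without 1 array (adjusted p 0.0433 to 0.0881), and not with no intensity trend (adjusted p = 0.0819). The other 2 tested probe sets of Flrt2 had positive differences, and neither passed. In 2 of the 6 genes the groups did not overlap, against 31.8% of all tested genes. Besides Flrt2 this was the binding protein gene Fgfbp1, lower in Cre-labelled lungs. It read 8.19, 8.45 and 8.28 in Cre-labelled lungs, against 8.63, 8.89 and 8.90 in control-labelled lungs. Its log2 difference of -0.50 ± 0.12 SE fell just short of the threshold (limma adjusted p = 0.051). Both klotho genes of the list, Kl and Klb, the co-receptors of the endocrine FGFs, lay below the level for testing.

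Of 12 tested feedback and target genes none rose, 1 fell and 11 did not pass (median log2 difference -0.03). Spry1, a Sprouty gene that is induced by FGF signalling and restrains it, read 7.45, 7.15 and 6.89 in Cre-labelled lungs, against 8.05, 7.85 and 7.83 in control-labelled lungs. It was 1.67-fold lower (-0.74 ± 0.16 SE, limma adjusted p = 0.0355) without overlap, and it passed in 1 of the 6 fits without 1 array (adjusted p 0.0343 to 0.115). The call was also lost with no filter (adjusted p = 0.05) and with no intensity trend (adjusted p = 0.0968). The differences of the other 11 lay between -0.42 and 0.57. Of the 12, 4 had an unadjusted p under 0.05, against 19.5% of all tested probe sets. In 5 the groups did not overlap, against 31.8% of all tested genes. Besides Spry1 these 5 were Sox9 (0.57, limma adjusted p = 0.0787), Etv5 (0.41, adjusted p = 0.116) and Spred1 (0.18, adjusted p = 0.393), higher in Cre-labelled lungs, and Shh (-0.42, adjusted p = 0.0812), lower. In all, 6 of the 12 had a higher mean and 6 a lower one.

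None of 19 tested adaptor and Ras-MAPK genes passed in limma, with a median log2 difference of -0.10. Of the 19, 4 had an unadjusted p under 0.05, against 19.5% of all tested probe sets. A lower mean in Cre-labelled lungs was found in 14, against 6607 of all 12826 tested genes. In 8 the groups did not overlap, against 31.8% of all tested genes. Of the 8, Nras was higher in Cre-labelled lungs and the rest were lower. The smallest unadjusted p belonged to Stat3, a transcription factor activated by cytokine and growth factor receptors (-0.48 ± 0.12 SE, adjusted p = 0.0701), and to the phosphoinositide 3-kinase subunit gene Pik3r1 (-0.48 ± 0.15 SE, adjusted p = 0.123). Of 12 further secreted ligands only Fgf4 was tested, at signals of 3.98 to 4.84 in Cre-labelled and 4.58 to 5.18 in control-labelled lungs (adjusted p = 0.654), and the other 11 lay below the level for testing. Of 4 intracellular FGF homologous factors 3 were tested and none passed in limma, while 1 had an unadjusted p under 0.05; the smallest p values belonged to Fgf12 (-1.18 ± 0.48 SE, adjusted p = 0.211) and Fgf11 (-0.04 ± 0.27 SE, adjusted p = 0.955).

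**Figure D4:**
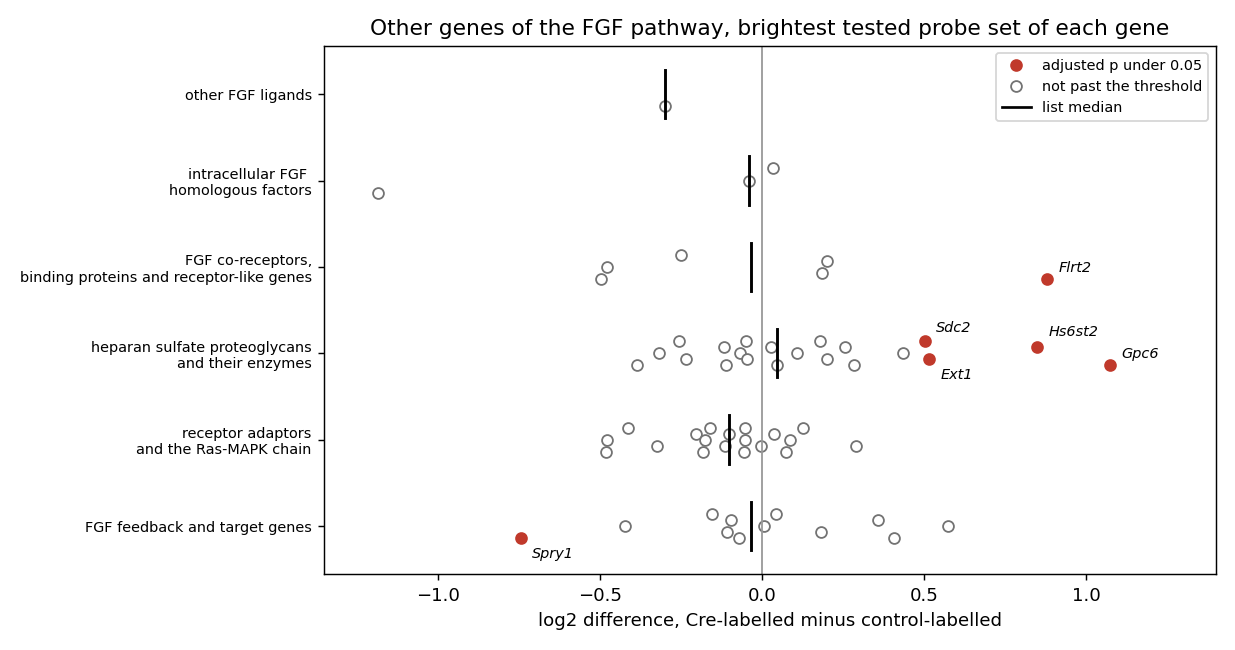
Log2 difference, Cre-labelled minus control-labelled, of 62 other pathway genes in 6 lists, with vertical bars for list medians and filled red points for the 6 genes past an adjusted p of 0.05. Gpc6, Hs6st2, Ext1, Sdc2 and Flrt2 lie to the right of 0 and Spry1 to the left.

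The arrays read RNA of lung tissue, so fewer cells of a type and less RNA per cell cannot be told apart. Summed marker signals of other cell types are given beside the Fgf1, Fgf7 and Spry1 values. The counts of markers below stand beside 19.5% of all tested probe sets with an unadjusted p under 0.05. The log2 of the summed signal of 7 lung mesenchyme markers was 12.89 to 13.04 in Cre-labelled and 13.12 to 13.17 in control-labelled lungs, although none of the 7 passed on its own (3 had an unadjusted p under 0.05), 4 of the 7 had a higher mean in Cre-labelled lungs, and their median log2 difference was 0.0085. Tcf21, the brightest of the 7, makes up much of this sum and read 11.77 to 12.03 in Cre-labelled and 12.01 to 12.31 in control-labelled lungs. The log2 sum was 12.13 to 12.44 in Cre-labelled and 12.59 to 12.71 in control-labelled lungs for 5 endothelial markers. None of these 5 passed, and 3 had an unadjusted p under 0.05. In all 5 the groups did not overlap, against 31.8% of all tested genes. A lower mean in Cre-labelled lungs was seen in 4, and a higher one in 1, Tek (0.10, limma adjusted p = 0.615). For 5 mesothelial markers the log2 sum was 10.70 to 10.98 in Cre-labelled and 11.48 to 11.79 in control-labelled lungs. Of these mesothelial markers, 2 fell and 1 had a higher mean in Cre-labelled lungs. Krt19, the brightest of these 5, read 9.78 to 10.25 in Cre-labelled and 10.51 to 10.77 in control-labelled lungs. For 4 leukocyte markers, of which 1 fell, the log2 sum was 11.22 to 11.57 in Cre-labelled and 12.00 to 12.24 in control-labelled lungs. Lyz2, the one that fell, is the brightest of the 4 and makes up much of this sum. It read 10.77 to 11.17 in Cre-labelled and 11.64 to 11.93 in control-labelled lungs. The other leukocyte markers had lower means in Cre-labelled lungs, but their groups overlapped. For 3 red cell markers the log2 sum was 8.78 to 9.70 in Cre-labelled and 9.88 to 10.06 in control-labelled lungs. Of these 3, 2 were tested and neither passed. Alas2, the brightest, makes up much of this sum and read 8.50 to 9.44 in Cre-labelled and 9.66 to 9.81 in control-labelled lungs. The values of Slc4a1 overlapped. These 5 sums did not overlap between the groups. The sums overlapped for 6 lung epithelial markers, of which 1 fell (13.86 to 13.98 in Cre-labelled and 13.96 to 14.73 in control-labelled lungs). Sftpc and Scgb1a1, the brightest, make up much of this sum, and the Sftpc values overlapped. In 4 of the 6 the groups did not overlap, against 31.8% of all tested genes. Of these, Sftpb (-1.27, limma adjusted p = 0.0148), Scgb1a1 (-0.69, adjusted p = 0.0561) and Cdh1 (-0.25, adjusted p = 0.291) were lower in Cre-labelled lungs. Epcam was higher (0.32, adjusted p = 0.175). For 7 cardiac muscle markers the sums overlapped (10.83 to 12.18 in Cre-labelled and 11.56 to 13.51 in control-labelled lungs). All 7 had lower means in Cre-labelled lungs, none passed, and 5 had an unadjusted p under 0.05. Sums also overlapped for 5 skeletal muscle markers (7.33 to 7.84 in Cre-labelled and 7.81 to 11.16 in control-labelled lungs). The same held for 3 liver markers (5.62 to 8.42 in Cre-labelled and 4.71 to 9.54 in control-labelled lungs). It also held for 4 thymus and oesophagus markers (4.41 to 5.57 in Cre-labelled and 4.55 to 5.18 in control-labelled lungs). Myh8 and Myog of the skeletal muscle list, Hba-a1 of red cells, Apoa1 of liver, and Cd3e, Rag1 and Krt13 of thymus and oesophagus lay below the level for testing. The part of these cell types in the FGF values was not tested.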

How the data were processed

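The deposited values are log2 signals, 1 column per array, and were used without an offset; MAS5 and affy are the tools listed, without versions, per the submitters' processing notes. Raised to the power of 2, the deposited log2 signals had the same mean on all 6 arrays (150.04 to 150.05) after trimming 2% at each end; the authors' other steps are not given in the sources used here. No column of another sample was present, and no 2 arrays were identical. Genes were named from GEO's platform annotation, and promoter windows came from a RefSeq table.

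Probe sets whose mean reached the 40th percentile were tested two-sided, 3 against 3 arrays, in R 4.3.3 by limma 3.58.1, whose lmFit and eBayes steps used an intensity trend and no covariate; p was adjusted by Benjamini-Hochberg over all 27022. A gene in a list was represented by its brightest tested probe set. The members, the lists and the tests were chosen with earlier results of these data known. The text names every member, Nfib, and of each pathway list the genes past the threshold or otherwise the 2 with the smallest p. The other genes named were picked after their values were seen: Sftpc, Tbx4, Tcf21, Krt19, Lyz2, Kl, Klb, Agrn, Hs2st1, Sdc4, Sox9, Etv5, Shh and Spred1. So were Fgfbp1, Nras, Nkx2-1, Sftpb, Scgb1a1, Cdh1, Epcam, Tek, Alas2 and Slc4a1. The alternatives were quantile normalization, a common median, offsets of 1 and 64, no filter and a 60th percentile filter, array weights, no intensity trend, a block for the replicate number, 1 probe set per gene, and each array left out in turn. The fit was tested on simulated data. The number of arrays limits the precision. The labels call the arrays biological replicates. Python 3.11.15 and matplotlib 3.10.9 drew the figures.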

Additional observations from a re-analysis of the deposited data

How the results depend on the processing

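The count of FGF probe sets past the threshold was 1 as reported. It was 0 with arrays scaled to a common median and with no intensity trend, and 2, with Fgf7 joining Fgf1, under the 60th percentile filter, with array weights and with 1 probe set per gene. In the fits without 1 array it was 0 in each, and the array-wide count was 314 to 495 and the pathway list count 2 to 3, against 963 and 6 as reported. With arrays scaled to a common median the pathway list count was 4. With no intensity trend the array-wide count was 171 and the pathway list count 1, and with 1 probe set per gene the pathway list count was 10. Fewer arrays leave fewer degrees of freedom; the cause of the other shifts was not tested. Of 21 tested FGF probe sets, 15 kept the sign of their difference in all alternatives. The sign of the other 6 turned in some fits without 1 array, with ranges over these 6 fits of -0.037 to 0.422 for Fgf9 1438718_at, -0.0755 to 0.133 for Fgfr1 1436551_at, -0.114 to 0.116 for Fgfr2 1420847_a_at, -0.0124 to 0.768 for Fgfr3 1425796_a_at, -0.277 to 0.0419 for Fgfr4 1427776_a_at and -0.0418 to 0.235 for Fgfr4 1427777_x_at. The gap between the Fgf1 probe sets 1423136_at and 1441042_at ran from -0.195 to 0.142 over the fits without 1 array and was -0.23 with an offset of 64. The difference of the brightest Nfib probe set stayed past the threshold in all 16 alternatives.

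The labels give both groups replicate numbers 1 to 3. Deviations of same-numbered arrays from their group means correlated at -0.014, 0.195 and 0.138. Those of differently numbered arrays correlated at -0.271 to 0.142. With 3 arrays a group, these values cannot tell whether same-numbered arrays were paired. With the replicate block, 1309 probe sets passed on the whole array, 8 of the pathway genes and 1 FGF probe set, Fgf1 1423136_at (limma adjusted p = 0.0324).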
